A study of Mus musculus with 18 samples.

Results

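The machinery that lets calcium into a T cell after receptor engagement was followed through the RNA-seq counts as 10 genes, taken by name from the 37991 genes listed in every library: Plcg1, Itpr1, Itpr2, Itpr3, Stim1, Stim2, Orai1, Orai2, Kcna3 and Kcnn4. All 10 were among the 17240 genes that passed the filter on low counts (any group averaging 3 or more normalized counts) and were tested, and all 10 were well above it in every group, so none passed through a single high group. The 18 libraries were made from splenic CD4+ T cells, purified by enrichment, from Tg4-H2u mice aged 6 to 12 weeks, of both sexes, with 3 libraries in each of 6 groups. All 6 groups share the Tg4 transgene, a TCR specific for a peptide of myelin basic protein (MBP), so most CD4+ cells in every mouse recognize the same Ag. Mice were either given PBS throughout (naive, N) or tolerized by repeated subcutaneous injections of rising doses of the 4Y variant of that peptide (T). Resting cells (N0 and T0) were harvested 2 h after a final injection of PBS. Ag-stimulated cells (NAg and TAg) were harvested 2 h after a final injection of the 4Y peptide, so their stimulation took place in the animal and reached the T cells through its own antigen-presenting cells. PI-stimulated cells (NPI and TPI) were naive or tolerized cells kept in culture for 2 h with 20 ng/ml PMA and 2 µM of the calcium ionophore A23187. The promoter of the transgene, and whether a library came from 1 mouse or several, are not given in the sources used here. The study describes the libraries of a group as biological replicates, and the p-values measure the spread between them.

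As background, a triggered TCR recruits and activates phospholipase C gamma 1, which cuts a membrane lipid into diacylglycerol and inositol trisphosphate (IP3). IP3 opens its receptors in the endoplasmic reticulum, calcium leaves the store, and STIM proteins in the store membrane sense the loss and open ORAI channels in the plasma membrane, through which calcium enters from outside (store-operated calcium entry). Potassium leaving through Kv1.3 and KCa3.1 keeps the membrane potential negative and so sustains the inflow, which activates calcineurin and NFAT. PMA replaces diacylglycerol and the ionophore carries calcium across membranes, so PI stimulates the cell without the receptor or PLC. Whether store release, STIM or ORAI took part under PI was not measured. The comparisons address how the genes of this machinery were expressed in naive and tolerized cells at rest, after Ag and after PI.

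The enriched cells carried the defining T cell genes in every library (Cd3e between 1732 and 4804 normalized counts, Cd4 between 2142 and 7281), and libraries held between 10758571 and 24119489 counted reads (median 12268935), with the PI groups the deepest. The lowest count of any of the 10 genes in any library was 197 reads, so no value rests on a few reads. Reads of Xist and of Y-linked genes showed that N0 and NAg were made from females in 3 of 3 libraries and NPI and TPI from males in 3 of 3, whereas T0 held 2 male libraries and 1 female and TAg 1 male and 2 female. Sex, culture and PI can therefore not be told apart between NPI and N0. No group was cultured without PI, so culture and PI cannot be told apart between TPI and T0 either. The other T0 libraries differed from T0 replicate 3, the female one, by a chi-square per gene of 12.7 and 11.9 and from each other by 3.04 (4.51 to 13.1 between replicates of the other groups). Likewise, the other TAg libraries differed from TAg replicate 3, the male one, by 10.1 and 12.4 and from each other by 4.51. T0 replicate 3 was the highest T0 library for 8 of the 10 genes and the lowest for Itpr1 and Itpr2. Results that rest on T0 are given without it where that changes a call.

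After Ag every one of the 10 genes changed in both cell states, beside 65.5% of all tested genes in naive and 59.8% in tolerized cells. The changes went in opposite directions within the machinery, as they did over all tested genes. Orai1 (the pore-forming channel), Kcna3 (the voltage-gated potassium channel Kv1.3) and Stim2 (the more sensitive store sensor) rose, while Plcg1, the IP3 receptors Itpr1, Itpr2 and Itpr3, Stim1 (the main store sensor), Orai2 and Kcnn4 (the calcium-activated potassium channel KCa3.1) fell. In naive cells Orai1 rose 6.61-fold and Orai2 fell to 0.149 of its resting level. After PI Orai1 and Kcna3 rose as well, by 8.25-fold and 2.48-fold in naive cells, but Plcg1 rose too and the falls were small or not detected. Tolerized cells reached less Orai1 than naive cells after Ag and more after PI.

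By the quasi-likelihood test of edgeR, with p-values adjusted after Benjamini-Hochberg over the 17240 genes, 3 of the 10 genes were higher and 7 lower in NAg than in N0 at an adjusted p under 0.05, where 32.1% of all tested genes were higher and 33.4% lower (65.5% in either direction). In TAg against T0 the counts were again 3 higher and 7 lower, against 29.9% and 29.8% of all genes (59.8%). A change of at least 2-fold was reached by 8 genes in naive and 7 in tolerized cells (42.0% and 32.7% of all genes). After PI 5 genes were higher and 2 lower in naive cells (28.6% and 32.7% of all genes, 61.4% in all), and 6 were higher and 3 lower in tolerized cells (32.0% and 36.3%, 68.3% in all). Only Orai1 and Kcna3 passed 2-fold in each, against 31.8% of all genes in NPI:N0 and 40.6% in TPI:T0. The median log2 fold change over the 10 genes was -1.48 in NAg:N0, -1.0 in TAg:T0, 0.19 in NPI:N0 and 0.37 in TPI:T0, beside 0.00, -0.053, -0.059 and -0.10 over all tested genes. Both comparisons of a cell state share its resting libraries. The T cell markers themselves were lower after Ag, with 7 of the 8 markers lower and 1 higher in NAg:N0 (median log2 fold change -1.04) and 6 of 8 lower in TAg:T0 (-0.50). Their part in the falls was not tested, and in bulk RNA fewer T cells and less RNA per cell cannot be told apart.

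Markers of some other cells were lower after PI in culture, and those of others were not. Of 12 neutrophil markers 2 were higher and 7 lower in NPI:N0 (median log2 fold change -3.71), and 9 were lower in TPI:T0 (-4.53). Of 10 macrophage and dendritic cell markers 6 were lower in NPI:N0 (-1.88) and 3 in TPI:T0 (-0.87). Of 5 markers of CD8 T and NK cells 1 was higher and 1 lower in NPI:N0 (-0.44), and 4 were lower in TPI:T0 (-1.68). Of 7 B cell markers 1 was higher and 1 lower in each comparison (0.18 and 0.12). Of 9 erythroid markers 0 were called in NPI:N0 (-1.67) and 2 were lower in TPI:T0 (-1.71). With the erythroid and myeloid marker scores as covariates in edgeR, 4 genes were called in NPI:N0, where Orai2, Stim2 and Kcnn4 no longer passed, and 5 in TPI:T0, where Stim1, Itpr2, Itpr3 and Kcnn4 no longer passed. Of all 17240 tested genes 6993 and 6157 were called with the scores, against 10577 and 11768 without them. The rises of Orai1, Kcna3, Plcg1 and Itpr1 passed in both comparisons with the scores.

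**Figure D1:**
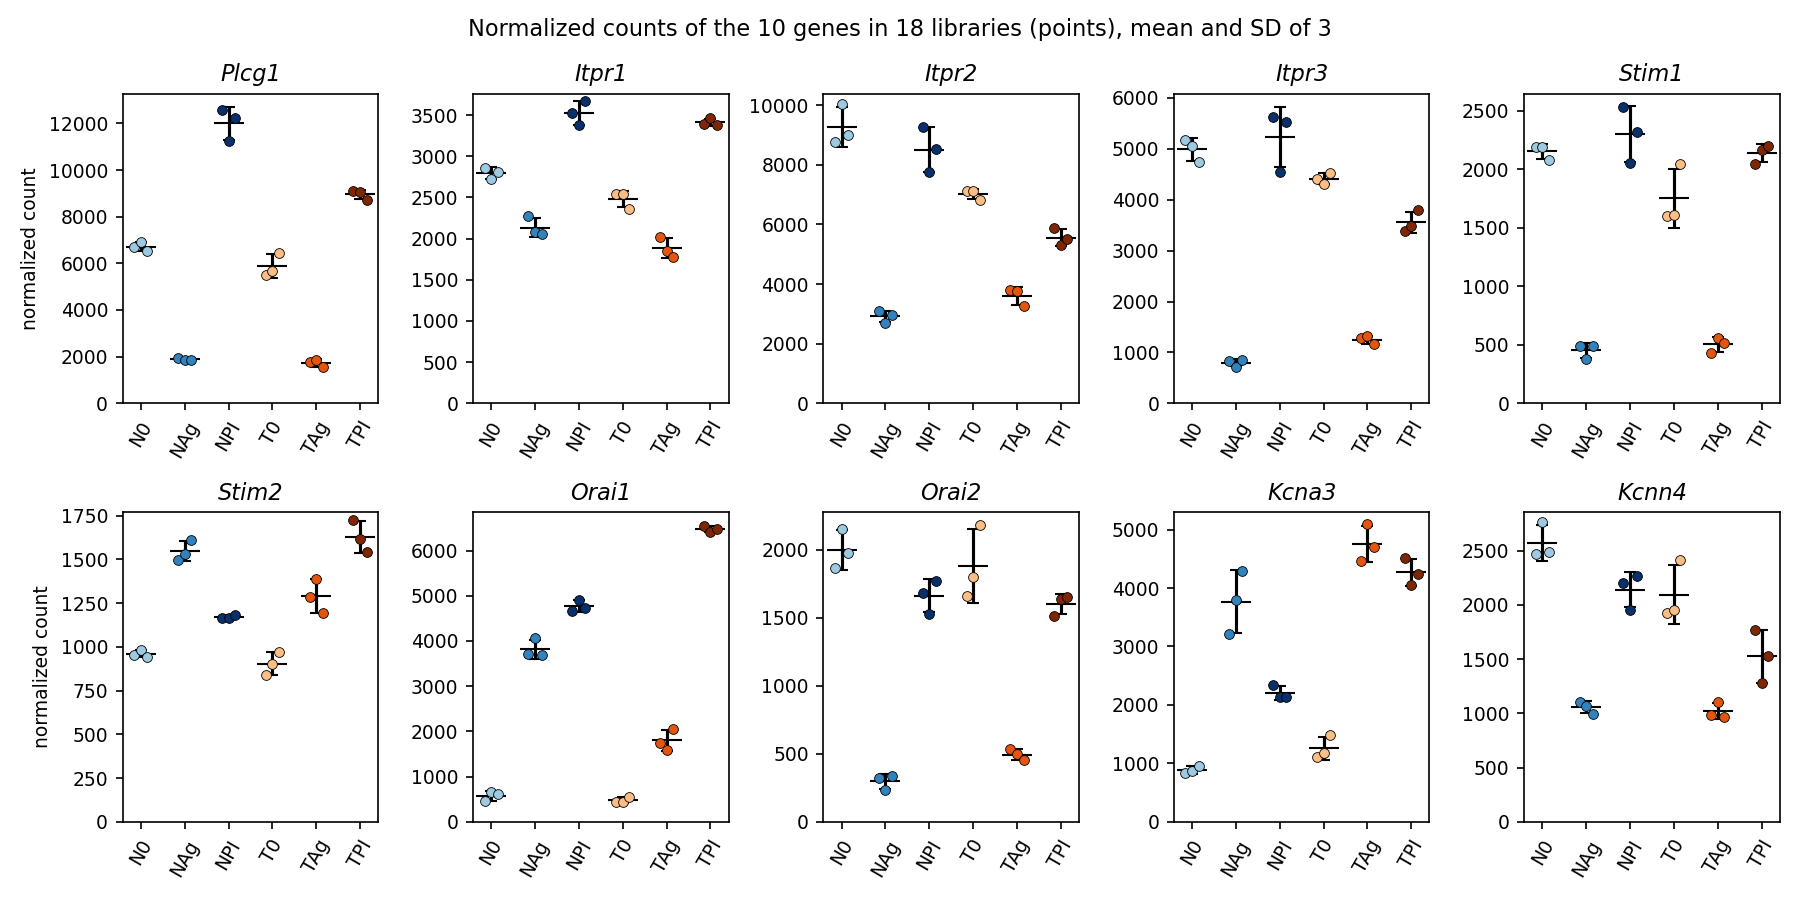
Normalized counts (y axis, linear from 0) of the 10 genes in the 6 groups (x axis), with each point 1 library and bars the mean and SD of 3. Orai1, Kcna3 and Stim2 sit higher in the Ag groups than at rest, whereas Plcg1, Itpr3, Stim1 and Orai2 sit far lower in the Ag groups and near or above rest in the PI groups.

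Plcg1 (ENSMUSG00000016933, chr2:160557036-160601496 in NCBIM37, the mm9 build of the files) encodes the phospholipase that the TCR signalosome activates. Its normalized count (the count scaled by TMM library sizes) was 6705, 6918 and 6537 in the 3 N0 libraries, 1921, 1873 and 1841 in NAg and 12588, 11225 and 12231 in NPI. In tolerized cells it was 5498, 5682 and 6453 in T0, 1768, 1856 and 1543 in TAg and 9093, 9039 and 8736 in TPI. The 3 states did not overlap in either kind of cell, with the Ag libraries the lowest and the PI libraries the highest. Plcg1 thus moved in opposite directions after Ag in the animal and after PI in culture. The log2 fold change was -1.84 ± 0.077, adjusted p = 1.78e-16, in naive cells after Ag (± SE here and below, edgeR) and -1.77 ± 0.077, adjusted p = 6.66e-16, in tolerized cells. After PI it was 0.84 ± 0.074, adjusted p = 6.15e-10, in naive and 0.61 ± 0.074, adjusted p = 9.58e-08, in tolerized cells. Exons of Plcg1 share 321 bases with Zhx3 on the opposite strand, and the strand setting of the counting is not stated. Zhx3 had at most 533 reads in any library, and the effect of the overlap on the Plcg1 counts was not tested.

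The 3 IP3 receptor genes encode subunits of the calcium release channel of the endoplasmic reticulum. They fell to very different degrees after Ag. Itpr3 (ENSMUSG00000042644, chr17:27194249-27259168) had 5166, 5065 and 4739 normalized counts in N0 and 827, 714 and 852 in NAg, and 4408, 4301 and 4518 in T0 and 1274, 1316 and 1159.8 in TAg. The lowest resting library was thus several times above the highest Ag library in both states, with log2 fold changes of -2.64 ± 0.087, adjusted p = 2.42e-18, in naive and -1.82 ± 0.084, adjusted p = 2.12e-15, in tolerized cells. Itpr2 (ENSMUSG00000030287, chr6:146056821-146450745), with the most reads of the family, had 8759.6, 10023 and 8985 in N0, 3084, 2706 and 2955 in NAg, 7121, 7117 and 6811 in T0 and 3786, 3768 and 3249 in TAg. It fell by 1.67 ± 0.082 on the log2 scale in naive cells (adjusted p = 3.67e-15) and by 0.96 ± 0.080 in tolerized cells (adjusted p = 1.45e-10), with no overlap. Itpr1 (ENSMUSG00000030102, chr6:108163112-108501103) changed least, from 2858, 2719.5 and 2812 in N0 to 2271, 2081 and 2052 in NAg and from 2542, 2539 and 2363 in T0 to 2020.1, 1855 and 1779 in TAg. Those small shifts were beyond the spread of replicates, at -0.39 ± 0.065, adjusted p = 9.93e-06, and -0.40 ± 0.065, adjusted p = 9.4e-06.

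After PI the same family changed little. Itpr1 rose to 3522, 3381 and 3667 in NPI (0.33 ± 0.064, adjusted p = 8.33e-05) and 3391, 3461 and 3384 in TPI (0.46 ± 0.064, adjusted p = 8.87e-07). Itpr2 stood at 9249, 7747 and 8521 in NPI, overlapping N0, and at 5864, 5306 and 5499 in TPI, below every T0 library. Itpr3 stood at 5636, 4550.2 and 5522 in NPI, again overlapping N0, and at 3387, 3491 and 3789.6 in TPI. In tolerized cells both therefore fell slightly (Itpr2 -0.34 ± 0.079, adjusted p = 0.000617, and Itpr3 -0.31 ± 0.080, adjusted p = 0.00155), whereas the naive values did not pass the test, with 95% intervals of -0.28 to 0.033 for Itpr2 and -0.088 to 0.23 for Itpr3.

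**Figure D2:**
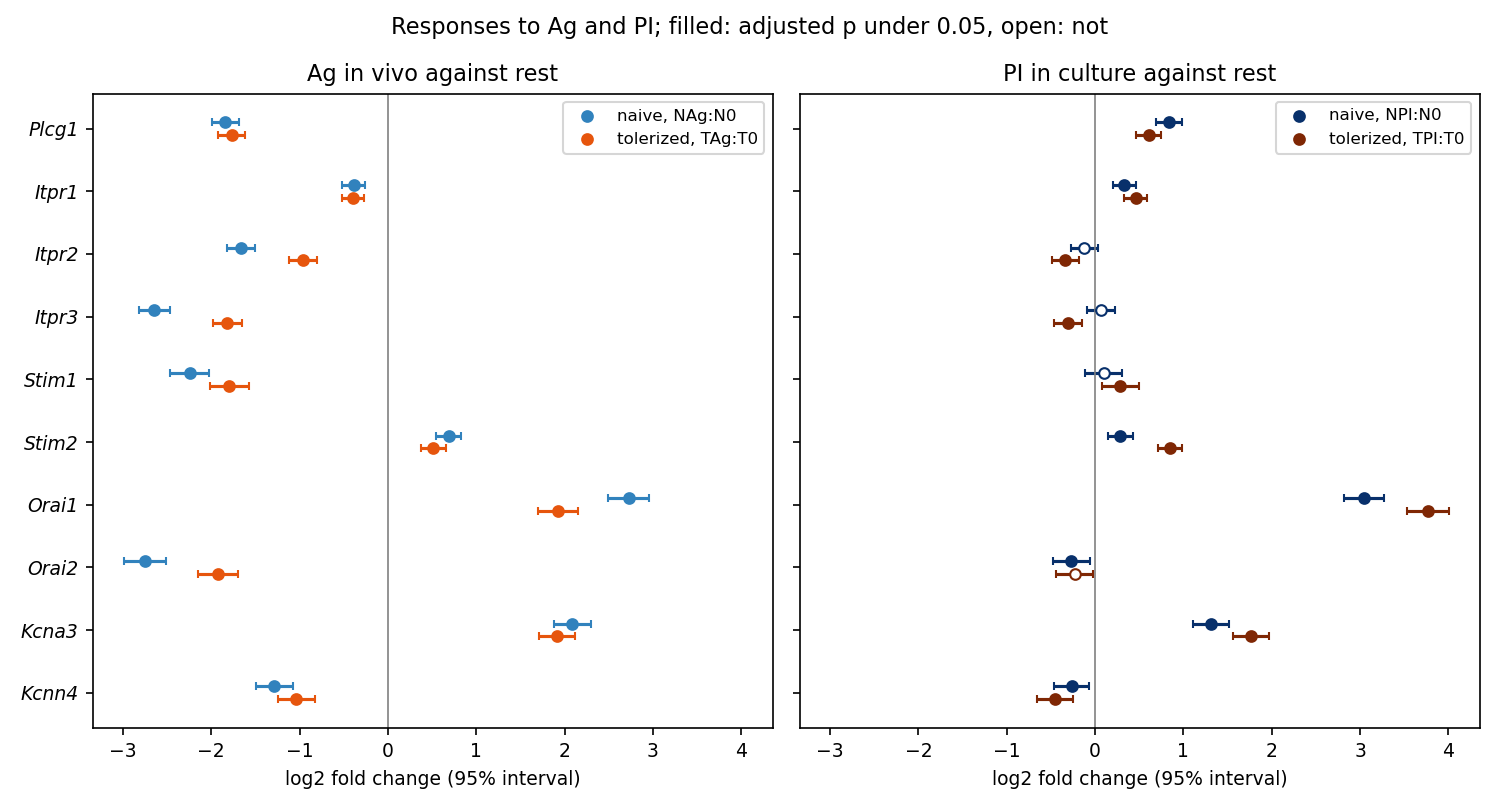
Log2 fold changes (x axis, with 95% intervals) of the 10 genes (y axis) after Ag in vivo (left) and after PI in culture (right), against rest, in naive and tolerized cells. Filled points have an adjusted p under 0.05, and Plcg1 and Stim1 lie far left of 0 after Ag but at or right of 0 after PI.

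The STIM proteins are the sensors of the store. Stim1 (ENSMUSG00000030987, chr7:109416338-109585362) had 2190.2, 2188 and 2076 normalized counts in N0, 487, 381 and 493 in NAg and 2528, 2052 and 2321 in NPI. The tolerized values were 1603, 1606 and 2045 in T0, 434, 562 and 515 in TAg and 2047, 2165 and 2200.4 in TPI. Only the Ag groups stood low, -2.25 ± 0.11, adjusted p = 1.06e-13, in naive and -1.8 ± 0.11, adjusted p = 5.91e-12, in tolerized cells. After PI the naive change of 0.097 ± 0.11 did not pass the test (adjusted p = 0.442, 95% interval -0.11 to 0.30), and the tolerized rise of 0.29 ± 0.11, adjusted p = 0.0198, no longer passed when any of 4 libraries was left out (T0 replicates 1 and 2, TPI replicates 2 and 3, at the lowest 0.20).

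Stim2 (ENSMUSG00000039156, chr5:54389762-54512296), whose product responds to smaller falls in store calcium, moved the other way after Ag. It had 956, 984 and 942 in N0, 1497, 1532 and 1611 in NAg and 1167, 1168 and 1184 in NPI. In tolerized cells it had 839, 904 and 969.6 in T0, 1287, 1388 and 1194 in TAg and 1726, 1617 and 1544 in TPI. Both stimuli thus left every library above rest, by 0.69 ± 0.071, adjusted p = 5.79e-09, and 0.51 ± 0.072, adjusted p = 9.57e-07, after Ag. After PI Stim2 rose by 0.29 ± 0.072, adjusted p = 0.00119, in naive and 0.85 ± 0.071, adjusted p = 1.5e-10, in tolerized cells.

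Orai1 (ENSMUSG00000049686, chr5:123465083-123480459) encodes the pore of the store-operated channel of T cells and had the widest range of the 10 genes. It had 458, 663 and 615 normalized counts in N0, 3714, 4064 and 3685 in NAg and 4668, 4912 and 4731 in NPI. In tolerized cells it had 433, 446 and 548 in T0, 1748, 1590.5 and 2056 in TAg and 6546, 6421 and 6479 in TPI. Every stimulated library was far above every resting one, and the 6 groups ordered as TPI, NPI, NAg, TAg and then N0 and T0, of which only N0 and T0 overlapped. The log2 fold changes were 2.72 ± 0.12, adjusted p = 1.02e-14, and 1.92 ± 0.12, adjusted p = 4.94e-12, after Ag. After PI they were 3.04 ± 0.12, adjusted p = 6.45e-15, in naive and 3.77 ± 0.12, adjusted p = 1.63e-16, in tolerized cells. Exons of Orai1 share 7 bases with Kdm2b on the opposite strand, and Kdm2b had at most 12611 reads in any library.

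Orai2 (ENSMUSG00000039747, chr5:136623334-136646526), known to assemble with ORAI1 and to lessen the current, had 1867, 2155 and 1973 in N0 and 325, 231 and 333 in NAg. In tolerized cells it had 1658, 1798 and 2180.0 in T0 and 533, 495 and 456 in TAg. The groups did not overlap, and Orai2 showed the deepest fall of the 10 genes in both states, -2.75 ± 0.12, adjusted p = 8.31e-15, in naive and -1.93 ± 0.11, adjusted p = 2.57e-12, in tolerized cells. After PI it stood at 1682, 1529.6 and 1769.8 in NPI (-0.27 ± 0.11, adjusted p = 0.0365) and at 1516, 1636 and 1652 in TPI (-0.23 ± 0.11, adjusted p = 0.0626). The naive call did not hold without N0 replicate 2, NPI replicate 1 or NPI replicate 2, with sex or marker scores as covariates, or with DESeq2 or its size factors.

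The promoters of Orai1 and Orai2 are shown because the 2 genes went opposite ways after Ag. The sequences are those of RefSeq in GRCm38.p6 (a later build than that of the counts), 250 bases before to 50 bases after the annotated start, on the strand of the gene, chr5:123014824-123015123 (+) and chr5:136170607-136170906 (-). RefSeq promoters matched 9 of the 10 genes. Capitals mark matches, on either strand, to GGAAA (the core of NFAT sites, in 61.3% of all 32851 promoters of this length), TGANTCA (AP-1, 7.81%), TGACGTCA (CRE, 1.79%) or GCGNGGGCG (EGR, 5.55%). No motif contains another, and a match describes letters only.
Orai1: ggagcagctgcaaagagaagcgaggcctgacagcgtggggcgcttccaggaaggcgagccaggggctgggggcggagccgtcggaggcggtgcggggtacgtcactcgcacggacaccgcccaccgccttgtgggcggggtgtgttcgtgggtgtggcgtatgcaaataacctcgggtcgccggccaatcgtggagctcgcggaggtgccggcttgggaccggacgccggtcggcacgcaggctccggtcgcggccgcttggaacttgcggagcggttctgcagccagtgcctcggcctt
Orai2: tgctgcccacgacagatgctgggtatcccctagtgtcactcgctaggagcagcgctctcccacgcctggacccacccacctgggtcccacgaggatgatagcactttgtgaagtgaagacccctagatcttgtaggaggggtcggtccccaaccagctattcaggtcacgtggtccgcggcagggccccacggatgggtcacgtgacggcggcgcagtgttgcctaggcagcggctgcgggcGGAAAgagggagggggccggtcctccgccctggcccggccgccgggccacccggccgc
The Orai1 window held none of these motifs, and the Orai2 window held 1 GGAAA, starting 8 bases before the annotated start.

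The potassium channels went opposite ways as well. Kcna3 (ENSMUSG00000047959, chr3:106839080-106841047) had 833, 875 and 954 normalized counts in N0, 3216, 3802 and 4287 in NAg and 2335, 2142 and 2136 in NPI. In tolerized cells it had 1106, 1184 and 1485 in T0, 4466, 5087 and 4703 in TAg and 4513, 4050.0 and 4245 in TPI. The resting libraries were the lowest in both states, and in naive cells the Ag libraries lay above the PI libraries. Kcna3 rose by 2.09 ± 0.11, adjusted p = 7.09e-14, and 1.92 ± 0.10, adjusted p = 3.77e-13, after Ag. After PI it rose by 1.31 ± 0.11, adjusted p = 3.97e-10, in naive and 1.76 ± 0.10, adjusted p = 1.52e-12, in tolerized cells.

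Kcnn4 (ENSMUSG00000054342, chr7:25155282-25170228) had 2469, 2766 and 2487 in N0, 1104, 1071 and 995 in NAg and 2204, 1955 and 2268 in NPI. In tolerized cells it had 1926, 1952 and 2410.2 in T0, 989.7, 1109 and 968 in TAg and 1770.1, 1278 and 1531 in TPI. It was lowest after Ag, where no library reached the resting levels and the log2 fold change was -1.28 ± 0.11, adjusted p = 3.06e-10, in naive and -1.04 ± 0.11, adjusted p = 1.42e-08, in tolerized cells. After PI the tolerized fall was -0.46 ± 0.10, adjusted p = 0.000502. The naive one was -0.26 ± 0.10, adjusted p = 0.0298, and did not pass without N0 replicate 2 or NPI replicate 2, or with sex or marker scores as covariates.

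The promoters of this pair, chr3:107035912-107036211 (+) and chr7:24370013-24370312 (+), are shown in the same way for the gene that rose and the gene that fell.
Kcna3: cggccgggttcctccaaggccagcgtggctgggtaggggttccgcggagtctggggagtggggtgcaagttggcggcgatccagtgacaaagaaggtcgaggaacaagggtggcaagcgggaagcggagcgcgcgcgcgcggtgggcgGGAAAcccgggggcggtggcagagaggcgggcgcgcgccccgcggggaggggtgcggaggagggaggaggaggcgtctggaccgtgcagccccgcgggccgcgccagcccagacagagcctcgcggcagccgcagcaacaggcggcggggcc
Kcnn4: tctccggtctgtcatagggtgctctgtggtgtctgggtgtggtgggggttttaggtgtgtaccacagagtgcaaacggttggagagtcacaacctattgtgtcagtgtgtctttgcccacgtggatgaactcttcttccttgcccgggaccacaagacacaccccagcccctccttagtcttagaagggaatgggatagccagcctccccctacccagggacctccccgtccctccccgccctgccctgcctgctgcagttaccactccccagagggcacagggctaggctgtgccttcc
The Kcna3 window held 1 GGAAA, starting 102 bases before the start, and the Kcnn4 window held no match to the 4 motifs. Of the other 5 genes with a promoter, Stim1, Stim2, Itpr3 and Plcg1 each held 1 EGR match, and Itpr2 held none.

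Most of these genes belong to families, and Kcna3 and Kcnn4 were set side by side as a pair of potassium channels. Levels were therefore also compared per exon length, as normalized counts per kilobase of merged exon, scaled to library size (written RPKM). In N0 Orai2 was above Orai1 (37.8 ± 2.75 against 18.5 ± 3.43 RPKM, SD, n = 3), Stim1 above Stim2 (43.8 ± 1.33 against 13.8 ± 0.31) and Kcnn4 above Kcna3 (74.6 ± 4.84 against 33.0 ± 2.28). In NAg all 3 orders had turned, with Orai1 at 122 ± 6.73 against 5.6 ± 1.07 for Orai2. Stim2 stood at 22.2 ± 0.839 RPKM against 9.23 ± 1.28 for Stim1, and Kcna3 at 140.2 ± 19.96 against 30.6 ± 1.61 for Kcnn4. After PI the Orai and potassium channel orders had turned as well, but Stim1 stayed above Stim2 at 46.8 ± 4.86 against 16.8 ± 0.138 RPKM in NPI. In NPI Kcna3 stood at 82.0 ± 4.22 against 62.1 ± 4.79 RPKM for Kcnn4. With the longest transcript as the length the values were 82.0 ± 4.22 and 77.1 ± 5.95. The order of the means was the same with that length, but the ranges overlapped (79.4 to 86.9 for Kcna3 and 70.4 to 81.6 for Kcnn4).

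As a share within each library, Orai1 made up 29.8% ± 2.93 of the reads per length of Orai1, Orai2 and Orai3 in N0 and 26.2% ± 0.252 in T0 (SD, n = 3). That share was 93.7% ± 1.38 in NAg, 80.4% ± 2.62 in TAg, 82.3% ± 1.39 in NPI and 86.6% ± 0.642 in TPI, so every stimulated library was above every resting one and TAg was below NAg without overlap (77.8% to 83.0% against 92.8% to 95.3%). Stim2 made up 23.9% ± 0.373 of the STIM reads per length in N0, 26.8% ± 1.68 in T0, 70.7% ± 2.87 in NAg, 64.4% ± 2.92 in TAg, 26.5% ± 2.04 in NPI and 34.9% ± 2.13 in TPI. It was thus the larger part only after Ag, and in PI-stimulated cells it was higher in the tolerized libraries (33.1% to 37.3%) than in the naive ones (24.5% to 28.6%).

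Kcna3 made up 30.7% ± 2.1 of the reads per length of Kcna3 and Kcnn4 in N0 and 43.5% ± 0.915 in T0, again without overlap. After Ag the share was 81.9% ± 2.89 in NAg and 85.7% ± 0.471 in TAg, and after PI 56.9% ± 1.95 in NPI and 78.3% ± 1.85 in TPI. Of the IP3 receptors, Itpr3 went from 36.8% ± 1.37 in N0 to 17.4% ± 1.04 in NAg, and Itpr1 from 17.8% ± 0.998 to 40.2% ± 1.55, while Itpr2 was 45.4% ± 2.03 and 42.4% ± 0.539. In tolerized cells Itpr3 went from 39.3% ± 1.27 to 23.7% ± 0.645 and Itpr1 from 19.1% ± 0.606 to 30.8% ± 1.17. These shares are descriptions without a test, chosen after the levels were seen. With the longest annotated transcript as the length, no share moved by more than 5.38 percentage points, and that of Kcna3 in NPI went from 56.9% to 51.6%.

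**Figure D3:**
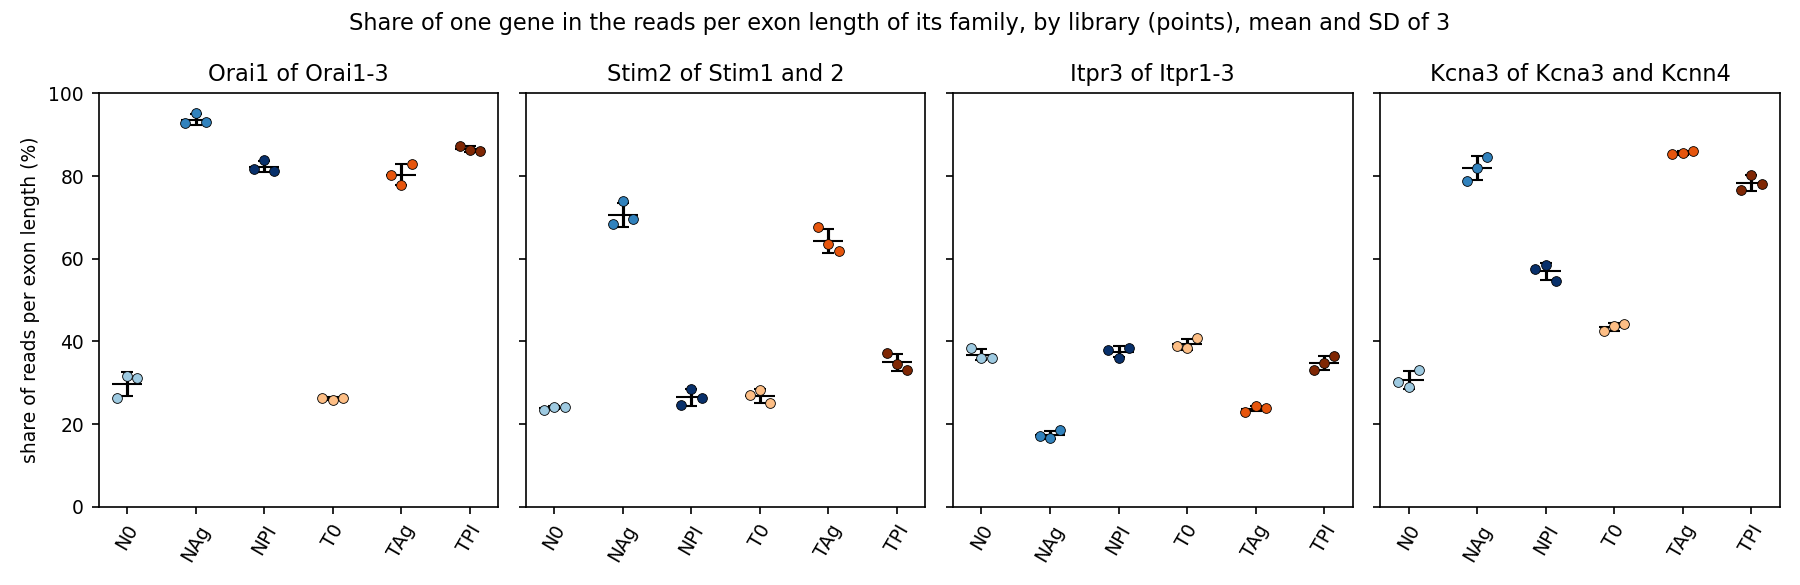
Share (y axis, percent) of Orai1, Stim2 and Itpr3 in the reads per exon length of their family, and of Kcna3 in those of the pair Kcna3 and Kcnn4. The 6 groups are on the x axis, each point is 1 library, and bars are the mean and SD of 3. Orai1 lies between 25.9% and 31.7% in the resting libraries and between 77.8% and 95.3% in the stimulated ones, and Stim2 exceeds Stim1 only in the Ag groups.

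At rest tolerized and naive cells differed little in these genes. In T0 against N0 1 gene was higher and 2 were lower (8.42% and 12% of all tested genes, 20.4% in all), none by 2-fold (6.18% of all genes), and the median log2 fold change was -0.19 beside -0.081 over all genes. Kcna3 was higher in T0 (1106, 1184 and 1485 against 833, 875 and 954, 0.50 ± 0.10, adjusted p = 0.00173), with every T0 library above every N0 library. Itpr2 was lower (7121, 7117 and 6811 against 8759.6, 10023 and 8985, -0.40 ± 0.079, adjusted p = 0.000874), also without overlap. Kcnn4 was lower at -0.30 ± 0.10, adjusted p = 0.0441, a call that 4 of the 6 left-out libraries and 4 of the 7 other settings removed. Of the other 7 genes, 5 had an unadjusted p under 0.05 in edgeR but no adjusted p under it: Stim1 (-0.30 ± 0.11, adjusted p = 0.0507), Itpr1 (-0.17 ± 0.064, adjusted p = 0.0612), Plcg1 (-0.19 ± 0.074, adjusted p = 0.067), Orai1 (-0.28 ± 0.12, adjusted p = 0.0962) and Itpr3 (-0.18 ± 0.080, adjusted p = 0.123). Without T0 replicate 3 the count was 6, since Stim1 (-0.43 ± 0.10, adjusted p = 0.00538), Plcg1 (-0.27 ± 0.073, adjusted p = 0.01) and Orai1 (-0.40 ± 0.12, adjusted p = 0.0224) were then lower too, but the remaining T0 libraries are both male and the N0 libraries all female.

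Markers of some cells other than T cells differed between T0 and N0 as well, but not all in 1 direction. All 12 neutrophil markers were higher in T0 than in N0 (median log2 fold change 4.28), and their summed normalized counts ranged from 97.2 to 229.8 in N0 and from 2165 to 3612 in T0. Of 10 macrophage and dendritic cell markers 1 was higher and 1 lower (median -1.24), and of 5 CD8 T and NK markers 1 and 1 (0.39). Of 9 erythroid markers 2 were higher (3.02), and of 7 B cell markers 0 were called (0.72). The T cell markers summed to between 32925 and 35392 in N0 and between 29291 and 35659 in T0. The myeloid score averages the neutrophil markers with the macrophage and dendritic cell markers. It ran from -0.70 to -0.29 in N0 and from 1.22 to 1.65 in T0, so a fit with it can hardly tell score and cell state apart. With covariates for the erythroid and myeloid marker levels, edgeR called 0 of the 10 genes between T0 and N0 (1 at an unadjusted p under 0.05, Kcna3 at 0.88, adjusted p = 0.139), while DESeq2 without covariates called 6, and only 48 of all 17240 genes passed in the fit with covariates. The part of these cells in the resting differences was otherwise not tested.

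After Ag tolerized cells differed from naive cells in 7 of the 10 genes, 4 higher and 3 lower (20.9% and 18.5% of all tested genes, 39.4% in all). The largest difference was Orai1, at 1748, 1590.5 and 2056 in TAg against 3714, 4064 and 3685 in NAg, -1.09 ± 0.11, adjusted p = 1.47e-07, the only change past 2-fold (10.8% of all genes). Orai2 (533, 495 and 456 against 325, 231 and 333) and Itpr3 (1274, 1316 and 1159.8 against 827, 714 and 852) were higher in TAg, by 0.74 ± 0.12, adjusted p = 6.77e-05, and 0.65 ± 0.086, adjusted p = 2.33e-06. None of these 3 overlapped between the groups. Itpr2 was also higher (0.30 ± 0.080, adjusted p = 0.00389), as was Kcna3 (0.33 ± 0.10, adjusted p = 0.011), and Stim2 (-0.26 ± 0.071, adjusted p = 0.00465) and Itpr1 (-0.18 ± 0.065, adjusted p = 0.0318) were lower. The Kcna3 and Itpr1 calls did not hold without NAg replicate 1 or TAg replicate 2, nor, for Itpr1, without TAg replicate 3, without the filter on low counts or with only these 2 groups in the fit. No difference was detected for Plcg1 (95% interval -0.27 to 0.024), Stim1 (-0.080 to 0.38) or Kcnn4 (-0.26 to 0.16). All 12 neutrophil markers were higher in TAg (median 3.45), while of 10 macrophage and dendritic cell markers 7 were lower and 1 higher (-2.67). With the marker scores as covariates Orai1 (-1.06, adjusted p = 0.00155), Itpr3 (0.64, 0.00526) and Kcna3 (0.56, 0.024) still passed. Of all 17240 tested genes 2602 passed with the scores, against 6794 without them. With sex as a covariate the count among the 10 genes was 7 as well.

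The response to Ag was then compared between the cell states as the difference of the log2 fold changes, tolerized minus naive. It differed for 5 of the 10 genes, with 4 positive and 1 negative (14.6% and 7.09% of all tested genes, 21.7% in all), none by 2-fold (6.44%), and a median of 0.16 beside 0.050 over all genes. The rise of Orai1 was smaller in tolerized cells (-0.80 ± 0.16, adjusted p = 0.000921). The falls of Orai2 (0.83 ± 0.16, adjusted p = 0.000835), Itpr3 (0.83 ± 0.12, adjusted p = 1.59e-05), Itpr2 (0.70 ± 0.11, adjusted p = 6.41e-05) and Stim1 (0.45 ± 0.16, adjusted p = 0.0474) were shallower. The Stim1 difference did not pass in 5 of the 7 other settings, DESeq2 among them, or when any of 8 of the 12 libraries was left out. For Kcna3 (95% interval -0.45 to 0.12), Stim2 (-0.37 to 0.022), Kcnn4 (-0.041 to 0.54), Plcg1 (-0.14 to 0.28) and Itpr1 (-0.19 to 0.17) no difference in the response was detected. The T cell markers behaved alike in this contrast, with 6 of 8 positive and a median of 0.68, and their part in the shallower falls was not tested.

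**Figure D4:**
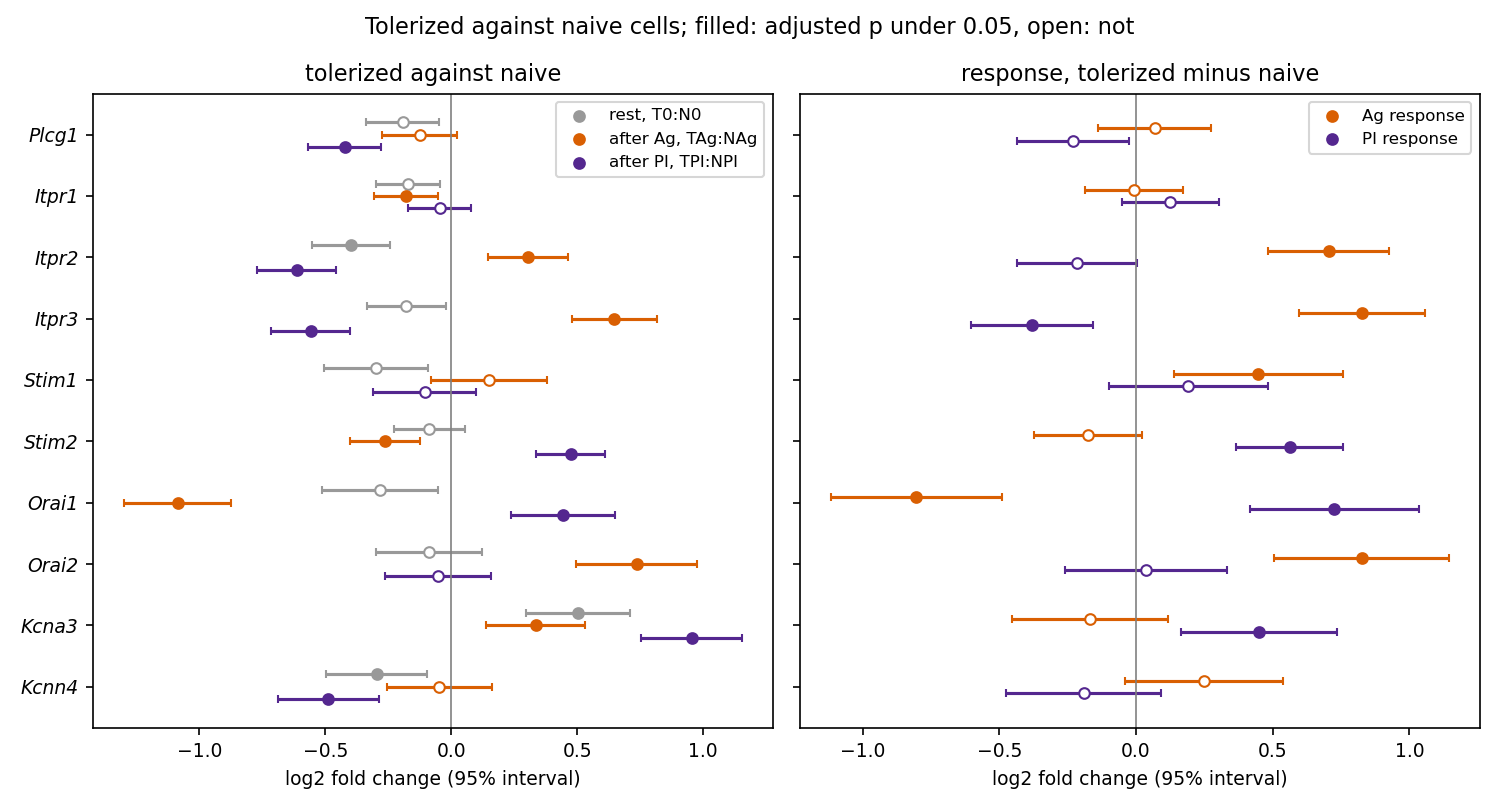
Log2 fold changes (x axis, with 95% intervals) of tolerized against naive cells at rest, after Ag and after PI (left), and the difference of the responses, tolerized minus naive (right), for the 10 genes (y axis). Filled points have an adjusted p under 0.05. In the left panel Orai1, Stim2, Itpr2 and Itpr3 have filled points on opposite sides of 0 after Ag and after PI.

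After PI 3 genes were higher and 4 lower in tolerized cells (18.2% and 19.7% of all tested genes, 37.9% in all), none by 2-fold (9.34% of all genes). Kcna3 was higher at 4513, 4050.0 and 4245 in TPI against 2335, 2142 and 2136 in NPI (0.95 ± 0.10, adjusted p = 1.81e-07), and so were Stim2 (0.47 ± 0.070, adjusted p = 9.02e-06) and Orai1 (0.44 ± 0.11, adjusted p = 0.00216), with no overlap. Itpr2 (-0.61 ± 0.079, adjusted p = 1.34e-06), Itpr3 (-0.56 ± 0.081, adjusted p = 6.03e-06), Kcnn4 (-0.49 ± 0.10, adjusted p = 0.000648) and Plcg1 (-0.42 ± 0.074, adjusted p = 6.13e-05) were lower, also with no overlap. Both groups consisted of male libraries, so sex did not differ here. The neutrophil markers were higher in TPI for 8 of 12 (median 3.18, sums of 73.9 to 191 in NPI and 486 to 828 in TPI), and with the marker scores Kcna3, Stim2, Itpr2 and Itpr3 still passed, whereas Orai1 (0.47, adjusted p = 0.135), Kcnn4 (-0.31, 0.285) and Plcg1 (-0.35, 0.0612) did not, at differences that kept their direction. Of all 17240 tested genes 2752 passed with the scores, against 6537 without them.

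The response to PI differed between the states for 4 of the 10 genes, 3 positive and 1 negative (12.7% and 7.52% of all tested genes, 20.2% in all), none by 2-fold (4.07%), with a median of 0.081 beside -0.039. Orai1 (0.72 ± 0.16, adjusted p = 0.00225), Stim2 (0.56 ± 0.10, adjusted p = 0.000242) and Kcna3 (0.45 ± 0.15, adjusted p = 0.0316) rose more in tolerized cells, and the response of Itpr3 was lower in them (-0.38 ± 0.11, adjusted p = 0.019). Kcna3 lost its call when any of 7 libraries was left out and Itpr3 when any of 4 was. Both calls were lost with the marker scores, and that of Kcna3 also with sex as a covariate. N0 is all female here and NPI and TPI are all male, so sex and this difference in response are partly confounded. The response of tolerized cells could be computed within males by leaving out T0 replicate 3, and Orai1 then rose by 3.85 ± 0.13, adjusted p = 2.67e-15, Kcna3 by 1.87 ± 0.10, adjusted p = 2.47e-13, and Stim2 by 0.87 ± 0.074, adjusted p = 5.34e-10. Culture and PI still cannot be told apart in that comparison. With sex as a covariate, estimated from T0 and TAg, the naive response was 3.02 for Orai1, 1.5 for Kcna3, 1.06 for Plcg1, 0.45 for Stim2 and 0.34 for Itpr1, which all kept an adjusted p under 0.05, while Orai2 (0.993) and Kcnn4 (0.812) did not.

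Around the 10 genes, further lists of the pathway were counted. Of 14 other regulators of store-operated entry, 3 were higher and 8 lower in NAg:N0 (median log2 fold change -1.13), 2 and 9 in TAg:T0 (-0.79), 4 and 4 in NPI:N0 (-0.16) and 4 and 8 in TPI:T0 (-0.50). Of all tested genes 32.1% were higher and 33.4% lower in NAg:N0, 29.9% and 29.8% in TAg:T0, 28.6% and 32.7% in NPI:N0 and 32.0% and 36.3% in TPI:T0. Homer1, a scaffold that binds IP3 receptors, went from 343 ± 18.6 normalized counts in N0 to 2674 ± 398 in NAg (2.96 ± 0.10, adjusted p = 8.06e-18) and from 309 ± 23.3 in T0 to 1117 ± 131 in TAg. Like Orai1 it was lower in TAg than in NAg (-1.26 ± 0.096, adjusted p = 5.46e-10) and higher in TPI than in NPI (0.51 ± 0.095, adjusted p = 0.000139). Saraf, which limits store-operated entry, had 3453 ± 134 in N0, 581 ± 101 in NAg and 9845 ± 243 in NPI, with a shallower fall after Ag in tolerized cells (1.0 ± 0.15, adjusted p = 6.01e-05). Cracr2a, a regulator of ORAI1 and STIM1, was higher in T0 (407 ± 19.1) than in N0 (246 ± 11.4, 0.73 ± 0.12, adjusted p = 0.000207) and fell after Ag in both states (-2.74 ± 0.16, adjusted p = 1.04e-13, in naive cells). Orai3, the third channel of the family, fell after PI (-1.91 ± 0.17, adjusted p = 1.19e-09, in naive and -1.96 ± 0.17, adjusted p = 1.68e-10, in tolerized cells).

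Of 18 phospholipase C and inositol phosphate genes, 5 were higher and 9 lower in NAg:N0 (median -0.56), 3 and 8 in TAg:T0 (-0.45), 7 and 4 in NPI:N0 (0.27) and 7 and 4 in TPI:T0 (0.20). The share of all tested genes called in either direction was 65.5%, 59.8%, 61.4% and 68.3% in these comparisons. Itpkb and Itpkc encode IP3 kinases, which convert IP3 to a further phosphate. Itpkb had 6332 ± 141 in N0 and 26058 ± 1004 in NPI (2.04 ± 0.082, adjusted p = 2.84e-16), and 5483 ± 288 in T0 and 36587 ± 1428 in TPI (2.74 ± 0.084, adjusted p = 8.47e-19). After Ag Itpkb was lower in TAg (3475 ± 369) than in NAg (7509.7 ± 656, -1.11 ± 0.080, adjusted p = 1.94e-10). Itpkc rose in all 4 responses, more in tolerized than in naive cells after PI (1.0 ± 0.14, adjusted p = 1.64e-05) and less after Ag (-0.65, adjusted p = 0.00163). Impa2, an inositol monophosphatase, fell in NAg (-2.96 ± 0.20, adjusted p = 2.41e-12) and was higher in TPI than in NPI (1.76 ± 0.15, adjusted p = 1.64e-09).

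Of 11 calcium pumps and exchangers, 2 were higher and 6 lower in NAg:N0 (median -0.30), 2 and 4 in TAg:T0 (-0.53), 3 and 3 in NPI:N0 (-0.22) and 5 and 5 in TPI:T0 (0.20), where 65.5%, 59.8%, 61.4% and 68.3% of all tested genes were called. The pumps that refill the store went opposite ways after Ag in naive cells, with Atp2a2 (SERCA2) at 2.36 ± 0.083, adjusted p = 6.86e-18, and Atp2a3 (SERCA3) at -1.77 ± 0.12, adjusted p = 5.91e-11. Atp2b1 and Atp2b4, pumps of the plasma membrane that carry calcium out, rose after PI in both states. Atp2b1 had 2574 ± 82.7 in N0 and 9607 ± 817 in NPI, and 3236 ± 57.5 in T0 and 26871 ± 2503 in TPI, a larger rise in tolerized cells (1.15 ± 0.11, adjusted p = 7.6e-08). Atp2b4 was higher in tolerized cells at rest (1.81 ± 0.28, adjusted p = 0.000697) and after PI (2.1 ± 0.27, adjusted p = 4.58e-05). Neutrophil markers also differed in both comparisons, and sex in part at rest. For Atp2b4, and for Cracr2a at rest, no values with these as covariates are given here.

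Of 37 tested potassium channel genes other than Kcna3 and Kcnn4 (of 94 listed), 10 were higher and 10 lower in NAg:N0 (median -0.90), 9 and 12 in TAg:T0 (-0.34), 14 and 7 in NPI:N0 (0.26) and 11 and 10 in TPI:T0 (0.74), again beside 65.5%, 59.8%, 61.4% and 68.3% of all tested genes called. Kcnh4 had 2.97 ± 2.97 normalized counts in N0, 132 ± 9.83 in NAg, 76.6 ± 6.04 in TAg and 69.2 ± 13.9 in NPI. Kcnmb4, an accessory subunit of BK channels, was lower in TPI than in NPI (-1.56 ± 0.16, adjusted p = 5.95e-08).

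For the 4 genes of the 10 with the widest range of group means, the genes most like them over the 18 libraries were sought among 10360 genes by Pearson's r of log2 CPM, as a description. Orai1 was most like Nap1l4 (r = 0.996), Mapre1 (0.996) and Slc3a2 (0.995), and Orai2 like Ypel3 (0.997), Slc28a2 (0.996) and Atg13 (0.995). Itpr3 was like Hmha1 (0.997) and Spnb2 (0.996), and Plcg1 like Arid4a (0.992), Zmiz1 (0.991) and Rgs10 (0.989). Among the 10 genes, Orai2 ran with Itpr3 (r = 0.985) and Stim1 (0.966), and Stim2 with Kcna3 (0.881) and Orai1 (0.862). The 18 libraries fall into 6 groups, so these values mostly describe the group means.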

How the data were processed

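RNA-seq was performed on rRNA-depleted RNA from MagniSort-enriched splenic CD4+ T cells in 18 libraries. Per the labels and methods, the authors aligned paired-end reads to mm9 with TopHat2 2.1.1 and counted them per Ensembl gene with HTSeq 0.9.1. The deposited values are raw counts, without normalization. The strand setting of the counting is not given in the sources used here. Identifiers, positions and exon lengths came from GENCODE vM1 (NCBIM37), which held 37205 of the 37991 genes, and 259 of 260 listed symbols were matched.

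Counts were scaled by TMM and tested with edgeR 4.0.16 (R 4.3.3, robust quasi-likelihood, 1 model with 6 group means, contrasts and interaction contrasts), after a filter at an average normalized count of 3 in at least 1 group. Adjusted p-values are Benjamini-Hochberg values over 17240 genes, and calls use 0.05. Normalized counts are scaled to the geometric mean of the library sizes. Standard errors come from the quasi-likelihood fit, and intervals are at 95%. The fit was tested on simulated data. Of 200 genes with a true log2 change of 1 it recovered 191 in T0:N0 and 192 in TPI:NPI, but 129 in the Ag interaction. Alternatives were DESeq2 1.42.0, its size factors in edgeR, no filter, only the groups compared, the replicate number as a block, marker scores, sex, a 2-fold minimum and leaving out each library. No 2 libraries of a group agreed within sampling noise (chi-square per gene at least 3.04).

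The 10 genes, the lists and the rule for naming genes were chosen with earlier results of these data known. All 10 were named. From each wider list the 2 largest changes per comparison at an adjusted p under 0.05 and an average of at least 50 were eligible to be named, and for likeness the 3 genes with the highest r, of which 1 is not reported here. Figures were drawn with matplotlib 3.10.9.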

Additional observations from a re-analysis of the deposited data

Results flagged for a closer look

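The responses of tolerized and naive cells differed by the interaction test for the genes given here (edgeR, Benjamini-Hochberg, log2 scale, tolerized minus naive). For Ag the differences were -0.80 for Orai1, 0.83 for Orai2, 0.83 for Itpr3, 0.70 for Itpr2 and 0.45 for Stim1. For PI they were 0.72 for Orai1, 0.56 for Stim2, 0.45 for Kcna3 and -0.38 for Itpr3. The smaller rise of Orai1 after Ag held without each of the 12 libraries in turn (-0.91 to -0.64), as did its larger rise after PI (0.64 to 0.88). The 4 positive Ag differences have the sign of the T cell markers, of which 6 of 8 were positive in the same contrast and none negative, and that of Orai1 has the opposite sign. The part of the T cell markers was not tested. The sex of the libraries differs between N0 and the PI groups, and with sex as a covariate the PI difference of Kcna3 no longer passed.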

How the results depend on the processing

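The counts of genes called after Ag, 10 of 10 in each cell state, were 10 in 7 other settings and without each library, and 8 and 7 with the 2-fold minimum. With the marker scores as covariates (edgeR) the count was 4 in NPI:N0, 5 in TPI:T0, 0 in T0:N0 (1 at an unadjusted p under 0.05), 3 in TAg:NAg, 4 in TPI:NPI and 2 in the PI interaction. Over all 17240 tested genes that setting called 6993, 6157, 48, 2602, 2752 and 2917 in the same order. The main fit called 10577, 11768, 3519, 6794, 6537 and 3484, so calls fell over all genes as well. The myeloid score did not overlap between the groups in NPI:N0, TPI:T0, T0:N0, TAg:NAg or TPI:NPI, so score and group can hardly be told apart in that setting. With the 2-fold minimum the count among the 10 genes was 2 in NPI:N0, 2 in TPI:T0, 0 in T0:N0, 1 in TAg:NAg and 0 in TPI:NPI and both interactions. DESeq2 gave 6 in T0:N0. Leaving out 1 library gave 5 to 8 in NPI:N0, 8 to 9 in TPI:T0, 2 to 6 in T0:N0 (6 without T0 replicate 3), 5 to 7 in TAg:NAg, 7 throughout in TPI:NPI, 4 to 5 in the Ag interaction and 2 to 4 in the PI interaction (2 without N0 replicate 3, NPI replicate 3 or TPI replicate 1). Other than by the construction of the 2-fold minimum, the cause was not tested. With the marker scores Orai2 in NPI:N0 turned from -0.27 to 0.0024. Of the 62 gene calls, 41 held in every setting and left-out library, and 20 were lost in at least 1 setting, all 20 with the marker scores. Equal replicate numbers did not pair the libraries, since correlations of their deviations ran from -0.47 to 0.24 and 3 of 18 libraries correlated best with their own number. With the replicate number as a block the count was the same in each of the 9 comparisons (10, 10, 7, 9, 3, 7, 7, 5 and 4), and of the 62 gene calls that of Kcnn4 in T0:N0 was lost. DESeq2's size factors moved fold changes by at most 0.054. With 3 libraries per group small changes can be missed, and in the simulated Ag interaction some 2-fold differences were missed as well.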

Other observations

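For other lists of calcium handling genes, the counts are to be read beside the share of all tested genes called, 65.5% in NAg:N0, 59.8% in TAg:T0, 61.4% in NPI:N0 and 68.3% in TPI:T0. Of 11 genes of mitochondrial calcium uptake, 5 were higher and 4 lower in NAg:N0 (median log2 fold change 0.029), 7 and 3 in TAg:T0 (0.26), 4 and 4 in NPI:N0 (-0.18) and 5 and 4 in TPI:T0 (0.14). Mcu, the uniporter pore, had 578 ± 41.9 normalized counts in N0, 1028 ± 90.7 in NAg and 1051 ± 40.9 in NPI, and 551 ± 16.2, 678 ± 51.7 and 1392 ± 142 in the tolerized groups. Like Orai1 it was lower in TAg than in NAg (-0.60 ± 0.086, adjusted p = 6.5e-06, edgeR). Of 13 calcium-binding sensors, 4 were higher and 5 lower in NAg:N0 (-0.18), 4 and 5 in TAg:T0 (-0.33), 4 and 3 in NPI:N0 (0.077) and 6 and 3 in TPI:T0 (0.16), beside those same shares of all genes. Camk2d, a calmodulin-dependent kinase, rose in NAg (2.38 ± 0.083, adjusted p = 5.51e-18) and less in TAg (-1.14 ± 0.11, adjusted p = 1.04e-07, for the difference), and Camk2g fell (-2.32 ± 0.10, adjusted p = 5.59e-16).

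Of 26 tested calcium-permeable channel genes (of 32 listed), 3 were higher and 8 lower in NAg:N0 (-0.23), 5 and 9 in TAg:T0 (-0.26), 10 and 6 in NPI:N0 (0.31) and 7 and 8 in TPI:T0 (-0.16), where 65.5%, 59.8%, 61.4% and 68.3% of all tested genes were called. Cacnb1, a subunit of voltage-gated calcium channels, had 514 ± 89.2 in N0 and 14.6 ± 3.5 in NAg (-5.12 ± 0.18, adjusted p = 6.7e-18), and 402 ± 30.3 in T0 and 18.1 ± 1.96 in TAg. Tpcn1, an endolysosomal channel, had 1269 ± 106 in N0 and 78.9 ± 13.4 in NAg. Mcoln2 was higher in T0 (212 ± 10.3) than in N0 (53.7 ± 4.69, 1.98 ± 0.26, adjusted p = 0.000106), and its response to Ag was smaller in tolerized cells (-1.82 ± 0.33, adjusted p = 0.00102). After Ag it stood at 721 ± 178 in NAg and 802 ± 191 in TAg, so its mean was not lower in the tolerized cells. Neutrophil markers and, in part, sex also differed between T0 and N0, and no values of Mcoln2 with these as covariates are given here.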
